A study of Mus musculus with 4 samples.

Results

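The genes described are 8 short noncoding RNA genes of the mouse, Rn7sk, Rmrp, Rpph1, Terc, Rn7s1, Rn7s2, Rny1 and Rny3. They were chosen by name as genes of RNA polymerase III (Pol III) transcripts, and they are 8 of the 47937 gene rows of the count table, which also held 1445 rows of repeat subfamilies. Total RNA was sequenced from wild-type mouse embryonic fibroblasts (MEF cells) that were left untreated or were exposed to genistein, a plant isoflavone, at 50 µM for 24 h. There were 2 libraries per group. The labels do not say whether the untreated cells received the solvent, as the study's untreated cells did (DMSO alone) in several other assays. Nor do the labels say whether the replicates came from separate cultures, so the p-values measure the spread between these libraries. Library totals lay between 28591958 and 31464284 counts. Fibroblast markers were present in every library, with Col1a1 at 68036 to 81277 and Vim at 54168 to 64896 normalised counts, but Thy1 was at 0 in all 4. Of 10 markers of other cell types, 7 were too low to test in the 4 libraries, Epcam, Adgre1 and Myod1 were at 0, and the summed level of all 10 was 904 to 956 in the untreated and 817 to 835 in the genistein libraries, nearly all of it from Tubb3.

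Pol III makes short untranslated RNAs, and most of them work inside a ribonucleoprotein. 7SL RNA (Rn7s1, Rn7s2) is the scaffold of the signal recognition particle, which brings secreted and membrane proteins to the endoplasmic reticulum, and 7SK RNA (Rn7sk) holds the elongation kinase P-TEFb in an inactive pool. Rpph1 and Rmrp encode the RNA subunits of RNase P and RNase MRP, which trim precursor tRNA and precursor rRNA, and Y RNAs (Rny1, Rny3) bind the Ro60 and La proteins. Telomerase RNA (Terc), the template for telomere repeats, is in vertebrates a Pol II transcript, so its place in this list follows the choice of names and not its polymerase.

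The untreated and genistein-exposed MEF cells were compared to ask how these RNAs responded to genistein. Of the 8 genes, 5 were lower after genistein (Rn7s1, Rn7s2, Rn7sk, Rpph1 and Rmrp), none was higher, and 3 did not pass the test (Terc, Rny1 and Rny3), with a call set at an adjusted p under 0.05 in edgeR's quasi-likelihood test and the Benjamini-Hochberg correction taken over all 17358 rows tested. Much of the transcriptome differed between the groups, since 72.2% of all rows were called, 36.0% as lower and 36.2% as higher. A call by itself was therefore the usual outcome of a row. The median log2 fold change of the 8 genes was -0.51, with a range from -1.15 to 0.06, against 0.02 over all rows and -0.05 over protein-coding genes. The study's own thresholds, which set a minimum of 1 for the absolute log2 change and 100 for the mean normalised count as well, were passed by Rn7s1 and Rn7s2, both lower, where 3.92% of all rows passed them as lower. All values are shares of a library scaled to a common size, so fewer cells that carry an RNA and less RNA per cell cannot be told apart, and the amount per cell was not measured.

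**Figure D1:**
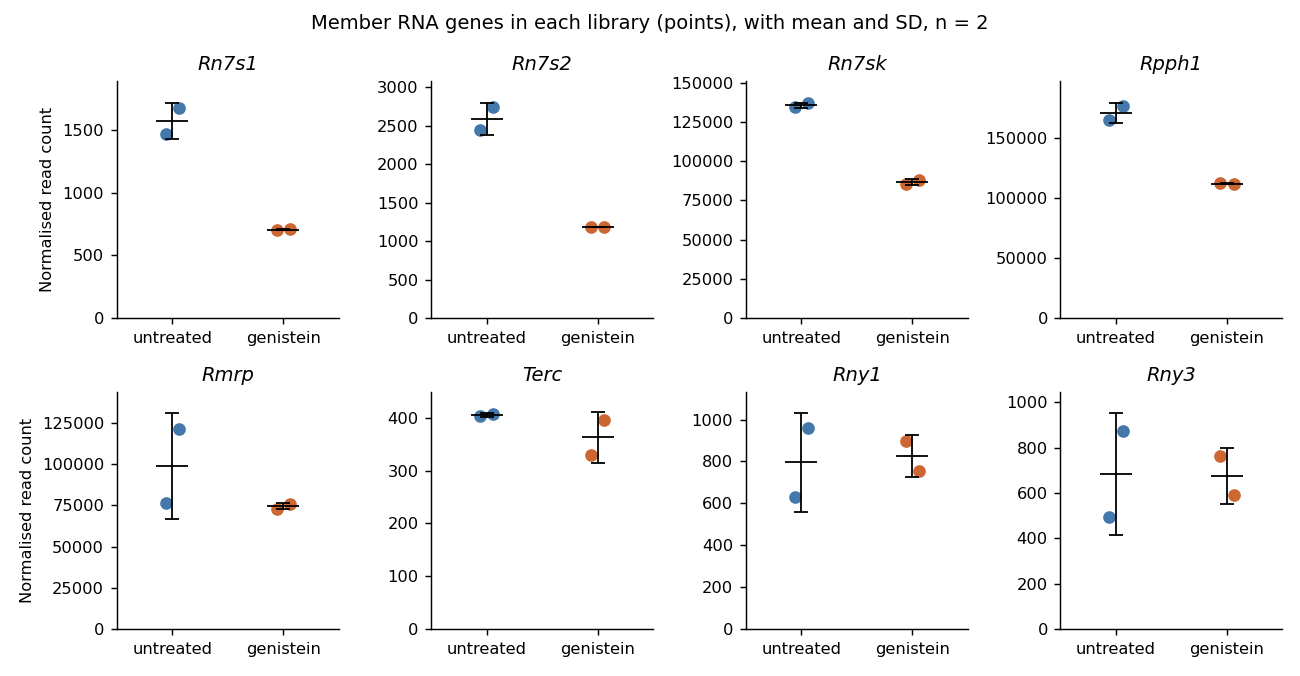
Normalised read counts (y axis, linear from 0, with its own scale in each panel) of the 8 genes in the 2 untreated and 2 genistein libraries. Points are libraries, horizontal bars the group means and error bars the SD (n = 2); the groups are far apart for Rn7s1, Rn7s2, Rn7sk and Rpph1, while the untreated libraries of Rmrp, Rny1 and Rny3 lie far from each other.

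The 7SL genes had the largest fall of the 8. Both lie on chromosome 12 of GRCm38 (mm10), Rn7s1 (ENSMUSG00000099021) at chr12:69159295-69159594 on the plus strand and Rn7s2 (ENSMUSG00000099250) at chr12:69361182-69361481 on the minus strand. Their annotated transcripts were identical over 300 of 300 bases. A read wholly inside them thus cannot be placed in one by its sequence, which bears on every 7SL value. Rn7s1 had 1468 and 1675 normalised counts without genistein and 702 and 711 after it. The groups did not overlap, and the means were 1572 ± 146 and 706 ± 5.81 (SD, n = 2). The log2 fold change was -1.15 ± 0.06 (SE, edgeR quasi-likelihood, Benjamini-Hochberg adjusted p = 9e-11), a 2.22-fold fall. Rn7s2 had 2446 and 2742 normalised counts without genistein and 1185 and 1184 after it. Its groups were as clearly apart, with a log2 fold change of -1.13 ± 0.05 (SE, adjusted p = 1e-11, the same test). Among all rows tested, 4.17% had a lower log2 fold change than Rn7s1 and 4.45% a lower one than Rn7s2. The ratio of Rn7s2 to Rn7s1 held at 1.67 and 1.64 in the untreated and 1.69 and 1.67 in the genistein libraries. The split of the 7SL gene counts between the identical copies was thus unequal but alike in all 4. How the counts came to be divided in this way was not tested.

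Most 7SL reads were counted elsewhere. The repeat row 7SLRNA, which sums the copies of the 7SL sequence over the genome, held 1444380 and 1541990 normalised counts without genistein and 737600 and 713396 after it. It fell too, with a log2 fold change of -1.04 ± 0.03 (SE, edgeR quasi-likelihood, Benjamini-Hochberg adjusted p = 1e-14). Summed over the repeat row and both genes, 7SL RNA took 4.71% and 5.05% of all counts in the untreated and 2.51% and 2.47% in the genistein libraries. The sum fell by 1.04 on the log2 scale (SE 0.03, adjusted p = 8.3e-15, the same test), and the gene rows held only 0.255% to 0.286% of it. The small gene rows and the far larger repeat row thus fell to a similar extent.

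Short gene models inside the 7SL genes carried counts of their own. Gm47287, annotated within Rn7s1, had 1455, 1568, 739 and 698 raw counts in untreated 1, untreated 2, genistein 1 and genistein 2, close to the 1470, 1582, 749 and 702 of Rn7s1 itself. Within Rn7s2, Gm47299 had 1226, 1367, 630 and 575 and Gm47305 had 1094, 1069, 558 and 523 raw counts. Their log2 fold changes were -1.15, -1.19 and -1.08, in step with the host genes. The remaining model, Gm47295, had 0 to 2 raw counts. Reads of these models cannot be separated from those of their hosts. Rps29, a ribosomal protein gene that lies 108 bases from Rn7s1, had 406 and 453 normalised counts without genistein and 232 and 237 after it, with a log2 fold change of -0.87 ± 0.09 (SE, edgeR quasi-likelihood, Benjamini-Hochberg adjusted p = 1.8e-07). Other annotated genes resembling 7SL over at least 90% of its length, Gm24105 with 91.7% identity and Gm22876 with 85.1%, had 1 raw count between them in the 4 libraries.

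Rn7sk (ENSMUSG00000065037) lies at chr9:78175303-78175633 on the minus strand of GRCm38 and spans 331 bases. Its first 100 bases are shown 5′ to 3′ because this end holds the GATC repeats (GAUC in the RNA) known as the binding site of HEXIM1, the protein that inhibits P-TEFb. The capitals mark the 3 matches to GATC, and at least 1 match stood in the first 100 bases of 23.4% of the 139316 annotated transcripts that are long enough.
Rn7sk: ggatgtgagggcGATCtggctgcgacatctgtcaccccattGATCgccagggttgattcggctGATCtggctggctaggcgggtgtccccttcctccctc
Rn7sk had 134541 and 136889 normalised counts without genistein and 85490 and 88064 after it. The replicates of each group lay close together and the groups did not overlap, with means of 135715 ± 1660 and 86777 ± 1820 (SD, n = 2). The log2 fold change was -0.65 ± 0.04 (SE, edgeR quasi-likelihood, Benjamini-Hochberg adjusted p = 1.4e-10), which left 63.9% of the untreated level. Its share of all counts was 0.438% and 0.447% in the untreated and 0.290% and 0.304% in the genistein libraries.

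The repeat row 7SK, which sums reads assigned to copies of the 7SK sequence, was nearly as large as the gene. It held 113688 and 116016 normalised counts without genistein and 73610 and 72214 after it. It fell by 0.66 on the log2 scale (SE 0.04, edgeR quasi-likelihood, Benjamini-Hochberg adjusted p = 1.6e-10). The gene took 53.7% to 54.9% of the sum of both rows in the 4 libraries, and the sum fell by 0.65 (SE 0.03, adjusted p = 1.3e-11, the same test). How reads of 1 origin were divided between the gene and the repeat row was not tested. The only annotated gene resembling 7SK by the same search, Gm23037 with 89.2% identity, had 4 to 8 raw counts. The ratio of summed 7SL to summed 7SK was 5.83 and 6.12 in the untreated and 4.65 and 4.46 in the genistein libraries, with no overlap between the groups. The nearest annotated gene, C920006O11Rik at 280 bases, had 29.97 and 45.5 normalised counts without genistein and 25.3 and 33.4 after it, groups that overlapped.

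Rpph1 (ENSMUSG00000092837), the RNA of RNase P, lies at chr14:50807449-50807767 on the minus strand of GRCm38 and spans 319 bases. Rmrp (ENSMUSG00000088088), the RNA of RNase MRP, lies at chr4:43492788-43493058 on the minus strand. Both overlap exons of protein-coding genes, and the strand setting of the counter was not stated, so their sequences are shown 5′ to 3′ with the shared bases in capitals. In Rpph1 the capitals are 233 bases that also lie in an exon of Ccnb1ip1 on the same strand, and in Rmrp they are 124 bases that lie in an exon of Ccdc107 on the opposite strand.
Rpph1, bases 1 to 300: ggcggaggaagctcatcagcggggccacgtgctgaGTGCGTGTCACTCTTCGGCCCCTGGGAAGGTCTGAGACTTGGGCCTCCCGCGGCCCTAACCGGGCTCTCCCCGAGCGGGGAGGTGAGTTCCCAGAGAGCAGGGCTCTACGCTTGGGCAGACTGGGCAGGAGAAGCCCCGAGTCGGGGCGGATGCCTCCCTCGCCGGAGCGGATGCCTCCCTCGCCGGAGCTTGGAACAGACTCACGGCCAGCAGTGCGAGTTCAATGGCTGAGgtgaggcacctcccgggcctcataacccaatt
Rmrp: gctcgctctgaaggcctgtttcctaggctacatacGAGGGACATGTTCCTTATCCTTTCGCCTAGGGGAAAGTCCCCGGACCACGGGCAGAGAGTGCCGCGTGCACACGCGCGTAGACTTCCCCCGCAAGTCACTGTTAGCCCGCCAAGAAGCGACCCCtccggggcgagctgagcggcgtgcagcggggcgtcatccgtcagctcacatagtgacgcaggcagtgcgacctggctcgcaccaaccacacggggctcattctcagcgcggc
These RNAs are related in evolution and share protein subunits, but an alignment of the whole transcripts had only 176 identical positions in 340 columns (51.8%), with no shared run longer than 9 bases.

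Rpph1 had 164941 and 176959 normalised counts without genistein and 112312 and 111729 after it. The groups were apart by far more than either pair of replicates, with means of 170950 ± 8498 and 112021 ± 413 (SD, n = 2). The log2 fold change was -0.61 ± 0.04 (SE, edgeR quasi-likelihood, Benjamini-Hochberg adjusted p = 4.7e-10), which left 65.5% of the untreated level. Ccnb1ip1 had 0, 0, 3 and 0 raw counts, so hardly any reads were counted for the overlapping gene. Parp2, which encodes a DNA damage response enzyme and lies 73 bases away on the opposite strand, had 1023 and 1057 normalised counts without genistein and 746 and 767 after it, a log2 fold change of -0.46 ± 0.06 (SE, adjusted p = 1.6e-06, the same test). Rn7sk and Rpph1 kept a nearly fixed proportion, with ratios of 0.816 and 0.774 in the untreated and 0.761 and 0.788 in the genistein libraries.

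Rmrp had 76194 and 121535 normalised counts without genistein and 73078 and 75627 after it. Untreated 2 stood well above the other libraries, while untreated 1 lay just above both genistein libraries, so the groups were separated by a narrow margin. The means were 98864 ± 32061 and 74352 ± 1802 (SD, n = 2). The log2 fold change was -0.41 ± 0.13 (SE, edgeR quasi-likelihood, Benjamini-Hochberg adjusted p = 0.0083). This call rested on untreated 2, since without it the log2 fold change was -0.04 (adjusted p = 0.45, the same test), and DESeq2 on all 4 libraries did not call it (adjusted p = 0.28). The ratio of Rmrp to Rpph1 was 0.462 in untreated 1 and 0.687, 0.651 and 0.677 in the other libraries, so untreated 1 had little Rmrp for its Rpph1. Ccdc107, the gene on the other strand, stayed between 418 and 459 normalised counts (log2 fold change 0.01, adjusted p = 0.87). A further annotated gene with the same sequence as Rmrp had no row in the table.

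**Figure D2:**
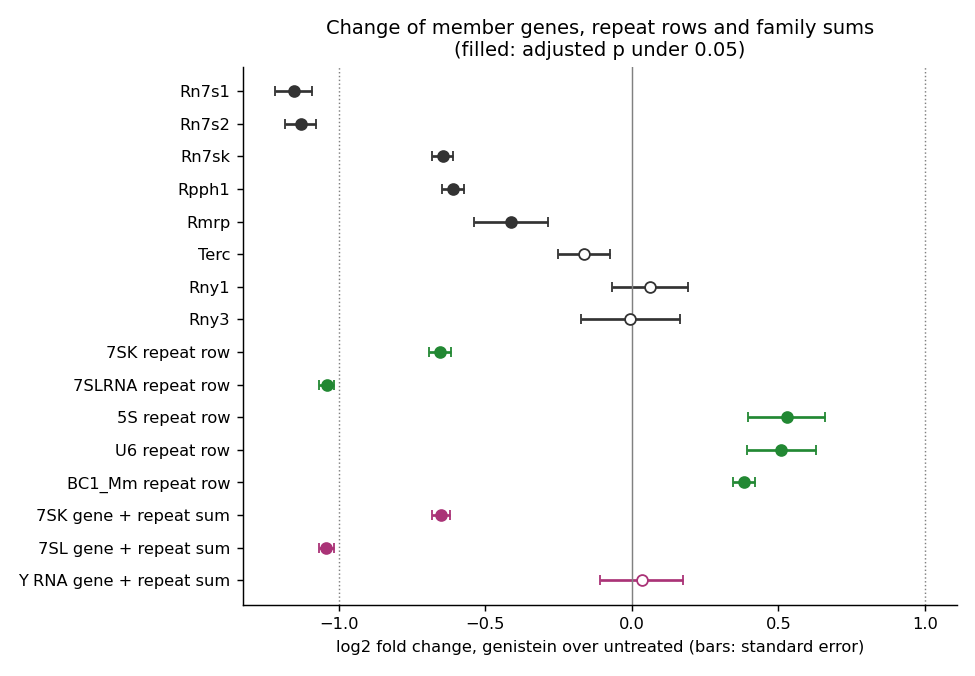
Log2 fold change of genistein over untreated (x axis) with its standard error for the 8 genes (black), repeat rows of Pol III RNAs (green) and sums of gene and repeat rows (purple). Filled points passed the test and dotted lines mark log2 fold changes of -1 and 1; the 7SL entries sit near or past -1, Rn7sk, Rpph1 and the 7SK row between -0.7 and -0.6, and the 5S, U6 and BC1_Mm rows above 0.

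Terc (ENSMUSG00000064796) lies at chr3:96414437-96414859 on the minus strand of GRCm38 and spans 423 bases. Its first 100 bases are shown 5′ to 3′ with the template of the telomere repeat, CTAACCCT, in capitals. These 8 letters stood in the first 100 bases of 0.111% of the annotated transcripts.
Terc: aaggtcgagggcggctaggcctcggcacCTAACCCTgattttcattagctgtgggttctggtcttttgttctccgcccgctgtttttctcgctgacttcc
Terc had 403 and 408 normalised counts without genistein and 329 and 397 after it. Both genistein libraries were lower, genistein 2 by little, and the groups did not overlap. The log2 fold change was -0.16 ± 0.09 (SE, 95% interval -0.35 to 0.03), and it did not pass the test (edgeR quasi-likelihood, Benjamini-Hochberg adjusted p = 0.11). Without genistein 2 it was -0.30 and passed (adjusted p = 0.0065, the same test), so this library decided the call. The Terc interval lay wholly above those of Rn7sk (-0.72 to -0.57) and Rpph1 (-0.69 to -0.53).

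The Y RNA genes are neighbours on chromosome 6 of GRCm38, Rny1 (ENSMUSG00000065701) at chr6:47788069-47788180 on the minus strand and Rny3 (ENSMUSG00000064945) at chr6:47781624-47781725 on the plus strand. Their whole transcripts are shown 5′ to 3′, with capitals on the terminal run of T, the signal at which Pol III stops and which La binds as U in the RNA. Among the 8 annotated transcripts these are the only ones with TTTT in the last 10 bases, a feature of 6.14% of 141767 annotated transcripts.
Rny1: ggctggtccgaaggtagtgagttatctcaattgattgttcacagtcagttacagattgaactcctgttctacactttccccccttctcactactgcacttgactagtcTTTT
Rny3: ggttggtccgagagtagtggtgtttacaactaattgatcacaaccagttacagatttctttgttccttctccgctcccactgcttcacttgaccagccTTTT
The sequences matched at 81 of 112 alignment columns (72.3%). Rny1 had 629 and 961 normalised counts without genistein and 897 and 755 after it. Rny3 had 494 and 873 normalised counts without genistein and 762 and 589 after it. For both genes the untreated libraries were the lowest and the highest of the 4, with the genistein libraries in between. The log2 fold change of Rny1 was 0.06 (95% interval -0.21 to 0.34, adjusted p = 0.68) and that of Rny3 was -0.01 (95% interval -0.37 to 0.35, adjusted p = 0.98), both by edgeR quasi-likelihood and Benjamini-Hochberg. Falls as large as those of Rn7sk or 7SL were outside these intervals, but changes in either direction within their limits were not. DESeq2 gave wider standard errors, 0.325 for Rny1 and 0.44 for Rny3, so the width of these intervals depends on the tool. A fall like that of Rn7sk is therefore not excluded for the Y RNAs. The order of the libraries was the same in both genes, and the ratio of Rny3 to Rny1 stayed between 0.780 and 0.909.

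The spread of the untreated Y RNA values decided their sign. Without untreated 1 the log2 fold change of Rny1 was -0.21 (adjusted p = 0.039) and that of Rny3 -0.37 (adjusted p = 0.0069), and without untreated 2 they were 0.40 (adjusted p = 0.0013) and 0.46 (adjusted p = 0.0028), all by edgeR quasi-likelihood and Benjamini-Hochberg. The repeat rows of human-named Y RNAs added almost nothing, with 1 to 6 raw counts for HY1, 0 to 9 for HY4 and 0 for HY3 and HY5. The summed Y RNA count was 1134 and 1836 in the untreated and 1674 and 1351 in the genistein libraries. Of 12 further annotated genes similar to Rny1, 11 had 0 counts in all libraries and Gm26168 had 1.

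**Figure D3:**
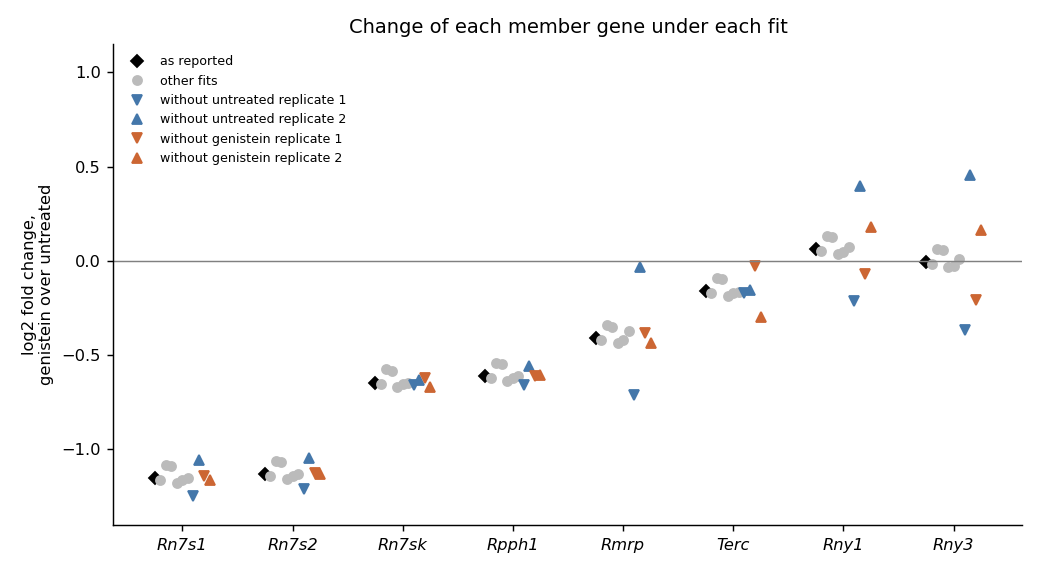
Log2 fold change of genistein over untreated (y axis) of each gene as reported (black diamonds), without each library in turn (blue and orange triangles) and under the other scalings, filters and tools (grey). Rn7s1, Rn7s2, Rn7sk and Rpph1 stay well below 0 under every fit shown, Rmrp comes close to 0 without untreated replicate 2, and Rny1 and Rny3 fall on both sides of 0.

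Rmrp and the Y RNAs were not alone in setting the untreated libraries apart. Vaultrc5, a Pol III transcript of the vault particle, had 70.9 and 143 normalised counts without genistein and 101 and 108 after it (log2 fold change -0.02, edgeR quasi-likelihood, Benjamini-Hochberg adjusted p = 0.94). The summed counts of annotated small nuclear RNA genes were 9336 and 15416 in the untreated and 13869 and 14265 in the genistein libraries. Those of small nucleolar RNA genes, without the 8 genes, were 38791 and 51627 in the untreated and 42694 and 42152 in the genistein libraries. In each of these, untreated 1 was the lowest library and untreated 2 the highest, as for Rny1 and Rny3. Counts of annotated rRNA genes were 79524 and 35857 in the untreated and 1470 and 67484 in the genistein libraries, an order shared by none of the 8 genes. The part of these differences between libraries in the values of Rmrp and the Y RNAs was not tested.

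**Figure D4:**
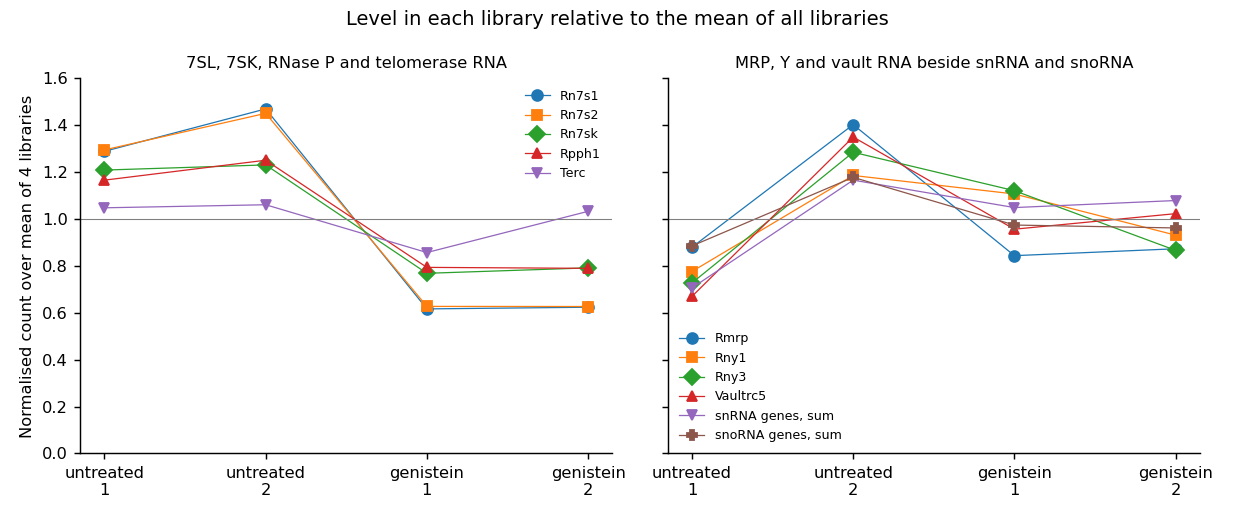
Normalised count in each library divided by the mean of the 4 libraries (y axis, linear from 0) for Rn7s1, Rn7s2, Rn7sk, Rpph1 and Terc (left) and for Rmrp, Rny1, Rny3 and Vaultrc5 beside the sums of snRNA and snoRNA genes (right). On the left both untreated libraries lie above both genistein libraries, and on the right untreated 1 lies between 0.67 and 0.89 and untreated 2 between 1.17 and 1.40.

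Per length, the rows of the 8 genes covered a wide range of levels. This order leaves out the repeat rows, which hold nearly all 7SL counts and close to as many 7SK counts as Rn7sk, so it does not rank the RNAs themselves. Among the gene rows Rpph1 was highest, with 517060 and 554730 normalised counts per kilobase in the untreated and 352080 and 350250 in the genistein libraries. Rn7sk followed with 406470 and 413560 in the untreated and 258280 and 266050 in the genistein libraries, and Rmrp with 281160 and 448470 in the untreated and 269660 and 279070 in the genistein libraries. In the untreated cells the Rmrp values enclosed those of Rn7sk, so these neighbours did not differ beyond their spread, while in the genistein libraries both Rmrp values were above both Rn7sk values. The mean level per kilobase was 8647 for Rn7s2, 7101 for Rny1, 6705 for Rny3, 5239 for Rn7s1 and 958 for Terc in the untreated libraries. In the genistein libraries it was 7377 for Rny1, 6625 for Rny3, 3949 for Rn7s2, 2355 for Rn7s1 and 858 for Terc, so the Y RNA genes stood above both 7SL gene rows there. Rny1 and Rny3 overlapped each other in both groups. Among 16157 gene rows, Rpph1 was at rank 2 per kilobase in the untreated and rank 3 in the genistein libraries, Rn7sk at rank 3 and rank 6, and Terc at rank 1725 and rank 1502. The 8 genes together took 1.24% and 1.44% of all counts in the untreated and 0.931% and 0.964% in the genistein libraries. With the repeat rows they took 6.31% and 6.86% in the untreated and 3.68% and 3.68% in the genistein libraries.

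Of other Pol III RNAs, only 8 gene names and 4 repeat names were looked up. Rows of tRNA and SINE repeats were not among them. Of 8 further genes looked up, 5 had no row under that name, Rnu6 had 1, 0, 0 and 1 raw counts and Rn5s had 0, so only Vaultrc5 was tested. Of the 4 repeat names, 3 had a row, and these 3 rows were higher after genistein, where 36.2% of all rows were called higher. The 5S row had 98.9 and 115 normalised counts without genistein and 156 and 153 after it, with a log2 fold change of 0.53 (SE 0.13, edgeR quasi-likelihood, Benjamini-Hochberg adjusted p = 0.0019). The U6 row had 140 and 139 in the untreated and 213 and 183 in the genistein libraries, with 0.51 (SE 0.12, adjusted p = 0.0011). BC1_Mm, the row named for a neuronal cytoplasmic RNA, had 2300 and 2371 in the untreated and 3076 and 3013 in the genistein libraries, with 0.38 (SE 0.04, adjusted p = 9.9e-08). None of the groups overlapped, but a repeat row sums scattered copies, and reads of such copies inside other transcripts cannot be told apart from the RNA itself.

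The enzyme that makes these RNAs was described by its protein genes. Of 13 genes of Pol III subunits, 11 were lower after genistein, against 36.0% of all rows, Polr3gl was higher and Polr3k did not pass, with a median log2 fold change of -0.55 against 0.02 over all rows. Polr3g, the subunit that alternates with Polr3gl in the enzyme, had 610 and 603 normalised counts without genistein and 212 and 227 after it. Its log2 fold change was -1.47 ± 0.08 (SE, edgeR quasi-likelihood, Benjamini-Hochberg adjusted p = 5.8e-11). Polr3gl moved the other way, from 123 and 130 to 188 and 165, a log2 fold change of 0.48 (SE 0.12, adjusted p = 0.0024, the same test). Crcp fell by 0.78 and Polr3e by 0.73 on the log2 scale, and Polr3k was at 0.04 (adjusted p = 0.48). Of 19 genes of transcription factors and regulators of Pol III, 11 were lower, 2 were higher and 6 did not pass, with a median of -0.17. The 13 called of 19 were thus near the 72.2% called among all rows, and with library totals or factors from protein-coding genes the split was 9 lower and 4 higher. Log2 fold changes were -0.94 for the TFIIIC subunit gene Gtf3c6, -0.87 for Gtf3a, which encodes the 5S-specific factor TFIIIA, and -0.64 for Zfp143, an activator of snRNA-type promoters. Gtf3c1, the largest TFIIIC subunit, rose from 4547 and 4560 to 7035 and 7001 normalised counts (log2 fold change 0.62, adjusted p = 1.9e-11). Maf1, the repressor of Pol III, had 1102, 1066, 1069 and 1038 normalised counts in untreated 1, untreated 2, genistein 1 and genistein 2, a log2 fold change of -0.04 (adjusted p = 0.49).

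Protein partners of the 8 RNAs were listed by particle. The lists also hold receptor subunits, maturation factors and proteins that need not bind the RNA themselves. Over all particles, 32 of 41 tested genes were lower, 4 were higher and 5 did not pass, with a median log2 fold change of -0.48, where 36.0% of all rows were lower and 36.2% higher. All 12 genes of RNase P and RNase MRP proteins were lower, with a median of -0.96. Rpp25, a subunit that binds the RNA directly, had 323 and 245 normalised counts without genistein and 76.0 and 85.0 after it (log2 fold change -1.82, SE 0.15, edgeR quasi-likelihood, Benjamini-Hochberg adjusted p = 1.2e-08), and Rpp40, Nepro and Rpp38 had log2 fold changes of -1.16, -1.09 and -1.08. Of 9 tested genes of the signal recognition particle and its receptor, 6 were lower, Srp72 was higher with a log2 fold change of 0.18, and 2 did not pass, with a median of -0.38. Srp68 fell by 0.55, Srprb by 0.45 and Srpr by 0.44 on the log2 scale, each by less than the 1.04 of the 7SL sum.

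The genes of 7SK partners did not move in 1 direction. Hexim1, the P-TEFb inhibitor, had 858 and 762 normalised counts without genistein and 1329 and 1396 after it. Its groups did not overlap and it rose by a log2 fold change of 0.75 (SE 0.06, edgeR quasi-likelihood, Benjamini-Hochberg adjusted p = 1.1e-08). Larp7, the La-related protein that stabilises 7SK, fell by 0.48 and Cdk9, the kinase of P-TEFb, by 0.38 on the log2 scale, while the cyclin gene Ccnt2 rose by 0.14 (adjusted p = 0.0055). The other 3 of the 7 genes did not pass, and the median was -0.08. Of 10 genes of telomerase proteins and Terc maturation, 9 were lower and Tert was higher, with a median of -0.61. Dkc1, the pseudouridine synthase that binds Terc and the H/ACA snoRNAs, had 4451 and 4301 normalised counts without genistein and 1329 and 1306 after it (log2 fold change -1.73, SE 0.04, adjusted p = 1.5e-15), and its partners Nhp2, Gar1 and Nop10 had log2 fold changes of -1.45, -1.28 and -0.75. Tert, the catalytic subunit, had 70.9 and 65.6 in the untreated and 104 and 76.9 in the genistein libraries, and its change of 0.41 on the log2 scale lay near the threshold (adjusted p = 0.048). All 3 genes of Y RNA and La proteins were lower, Ssb (La) by 0.87, Puf60 by 0.62 and Trove2 (Ro60) by 0.14 on the log2 scale.

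**Figure D5:**
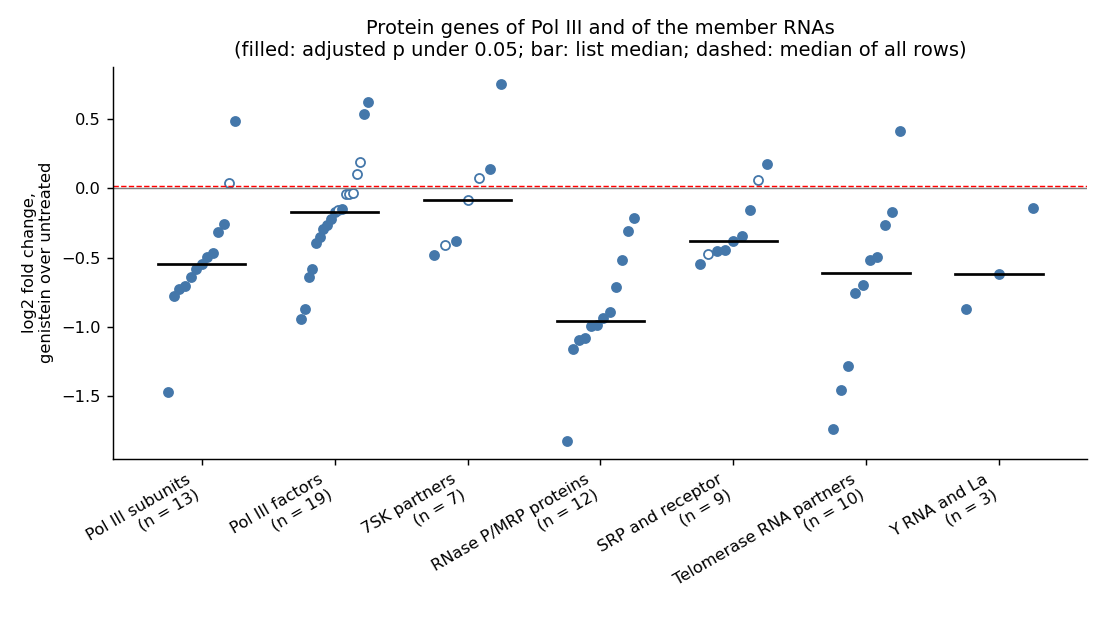
Log2 fold change of genistein over untreated (y axis) of each tested protein gene, by list (x axis, with the number tested). Filled points passed the test, black bars are list medians and the dashed line is the median of all rows; the RNase P and RNase MRP list lies wholly below 0, with a median of -0.96, and the 7SK list lies around 0, with Hexim1 at 0.75.

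The genes whose profile over the 4 libraries was nearest to each of the 8 were found by the distance between centred log2 normalised counts. They were sought among 10265 genes with a mean over 100, leaving out pseudogenes and genes with only a predicted name. Gm47287, which lies within Rn7s1 and had nearly the same counts, was left out by its name and not ranked. With only 4 libraries in 2 groups, a short distance says little more than that the fold change and the replicates were alike. Cstf1 was close to Rn7sk (distance 0.0173), and Rpph1 was nearest to E4f1 (0.0217) and Znhit3 (0.0264), all protein-coding. Rn7s2 was nearest to Cygb (0.0146) and Rn7s1 (0.031), and Rn7s1 to Rn7s2 and Cygb (0.0326). Terc was nearest to Tceanc (0.0417) and Alg6 (0.0523). Rny1 and Rny3 were each other's nearest gene (0.18), and next to both came Rnu12, the U12 small nuclear RNA of the minor spliceosome, with 223 and 389 normalised counts without genistein and 366 and 325 after it. The small nucleolar RNA gene Snora57 was among the genes closest to Rmrp (0.21), at a distance as long as those of the Y RNAs.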

How the data were processed

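Total RNA of 4 MEF libraries was depleted of rRNA with a stranded kit and sequenced from both ends. The authors trimmed reads with Trim Galore, aligned them to mm10 (GRCm38) with STAR, with multi-mapping reads kept, and made counts with TEtranscripts, which gives a gene exon precedence over a repeat. The deposited values are raw counts per gene or repeat subfamily. The strand option of the counter is not given in the sources used here.

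Rows were filtered with filterByExpr, which kept 16240 genes and 1118 repeats, scaled with TMM and tested with edgeR 4.0.16 (quasi-likelihood, Benjamini-Hochberg adjustment over all kept rows, threshold 0.05). A normalised count is a count scaled from its effective library size to the mean of these sizes, 29913014. The standard error is the log2 fold change divided by the root of F. 1 row named no gene (up to 0.00314% of a library) and was left out. With 2 against 2 libraries an exact permutation test cannot go below p = 0.333. Sequences and coordinates, counted from 1, come from the GENCODE transcripts of GRCm38, which are newer than the annotation the authors counted on; copies were sought with blastn 2.17.0 at 80% identity over 90% of the length. Motifs were searched on the transcribed strand only. The alternatives covered scaling, filter, DESeq2 1.42.0, thresholds, leaving out each library and a replicate block. The test was checked on simulated counts. The 8 genes and the lists were chosen with earlier results of these data known. Named genes are all 8, up to 4 called genes per list with the largest change, annotated genes within 1000 bases and the 2 nearest profiles. Polr3gl, Polr3k, Maf1, Srp72, Tert, Vaultrc5, Rnu6, Rn5s and the marker genes were named outside this rule, after their values were seen. A few genes that the rule names, and 1 sequence, are not reported here.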

Additional observations from a re-analysis of the deposited data

Results flagged for a closer look

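Outside the comparisons, the 1 table row that names no gene or repeat had 639 and 681 normalised counts in the untreated and 926 and 837 in the genistein libraries, with a genistein mean of 881.3 above both untreated values. What this row collects was not analysed here.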

How the results depend on the processing

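Rn7s1, Rn7s2, Rn7sk and Rpph1 kept their direction and their call at an adjusted p under 0.05 under every scaling, filter and tool and without any 1 library. The study's thresholds ask for an absolute log2 fold change over 1. Under them the called genes fell from 5 to 2 of the 8 and from 12 to 1 of the Pol III subunits. They fell from 13 to 0 of the Pol III factors, from 36 to 7 of the protein partners and from 2 to 1 of the repeat counterparts. The summed 7SK change of -0.65 was below the fold asked for. The summed Y RNA log2 fold change of 0.03 ranged from -0.276 to 0.419 when 1 library was left out. It was -0.276 without untreated 1 (edgeR's quasi-likelihood adjusted p = 0.0085), 0.419 without untreated 2 (adjusted p = 0.00056) and -0.129 without genistein 1 (adjusted p = 0.4). Rny1 ranged from -0.215 to 0.396, with -0.067 without genistein 1. Rny3 ranged from -0.366 to 0.455, with 0.162 without genistein 2, 0.063 with library totals, 0.057 with factors from protein-coding genes and 0.011 with the replicate block. The cause was not tested. Deviations of same-numbered libraries from their group means had a correlation of -0.0341. With 2 libraries per group both pairs give the same value, so whether the replicate numbers pair the libraries could not be decided. With the replicate block 5 of the 8 genes were called, with 7SL at -1.041 and Rmrp at -0.372. Left out in turn, the libraries gave -1.088 to -0.994 for summed 7SL and 5 to 7 called genes. Scalings moved the median of all rows by less than 0.1. Terc had the lowest raw counts of the 8, 351 to 403 per library, and the effect of depth on the values was not tested.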

Other observations

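Short noncoding RNA genes other than the 8 were counted by annotated type, against 36.0% of all rows called lower and 36.2% called higher. Of 276 tested small nucleolar RNA genes, 151 were lower and 25 higher, with a median log2 fold change of -0.71. Of 21 tested small Cajal body RNA genes, 5 were higher and 0 lower (edgeR's quasi-likelihood test), with a median of 0.36. Of 53 tested genes annotated as miscellaneous RNA, the type of the 7SL, 7SK and Y RNA genes, 18 were higher and 9 lower, with a median of 0.23. Their share called higher was near that of all rows. The untreated libraries differed from each other in summed small nuclear and nucleolar RNA, as described for Rmrp and the Y RNAs, and its part in these counts was not tested.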
